A study of Mus musculus with 8 samples.

Results

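Wnt ligands, their Frizzled receptors and the secreted inhibitors of the Sfrp and Dkk families were examined in ATAC-seq data, in which the Tn5 transposase inserts adapters into open DNA. The members are the protein-coding genes of mouse build GRCm38 whose symbols are Wnt, Fzd, Sfrp or Dkk followed by a number. These are 37 of 21887 placed genes: 19 Wnt, 10 Fzd, 4 Sfrp and 4 Dkk genes. A region of the deposited count table was taken when it lay inside a member or when a member's end was the nearest end of a protein-coding gene, within 50 kb. This gave 245 of 148664 regions, of which 126 belonged to Wnt, 59 to Fzd, 24 to Sfrp and 36 to Dkk genes. At least 1 region was found for 36 genes, and Fzd10 had none. After the filter on low counts 241 of the 245 regions were tested.

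Wnt proteins are secreted, lipid-modified ligands that bind the cysteine-rich domain of Frizzled receptors. With Lrp5 or Lrp6 as co-receptor they stabilise beta-catenin, which then acts with TCF/LEF factors on target genes such as Axin2, and other Wnt proteins, Wnt5a among them, also signal through Ror2 without beta-catenin. Sfrp proteins carry a Frizzled-like domain and bind Wnt ligands outside the cell, while Dkk1, Dkk2 and Dkk4 bind Lrp5 and Lrp6, and Dkk3 is a divergent member of that family. In the pigment lineage, Wnt signals promote melanocyte formation from the neural crest, and WNT5A is known for its association with invasive melanoma.

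A set of 4 melanoma cell lines were profiled, each in 2 libraries of 50000 cells. Lines 112 and 113 are labelled STAT3 knockout and lines 119 and 73 wild type, and the growth text names the genotypes as Stat3∆ and Stat3fl, so the controls carry the floxed allele. All lines came from lymph node cells of mice whose skin melanoma arose at about 25 to 30 weeks. The sample labels call each line a clone, whereas the growth text describes pools, and neither the Cre driver nor the tumour model is given in the sources used here. The titles carry a number after p (18, 44, 14 and 68 for lines 112, 113, 119 and 73) whose meaning is not stated, and it differs between all lines. Each genotype rests on 2 lines, and the 2 libraries of a line are labelled biological replicates without a statement that they came from separate cultures, so p-values between lines measure the spread between these libraries only.

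Library totals ran from 2697546 counts (line 112, replicate 2) to 7464336 (line 119, replicate 1), and 3 counts, the limit that a count of 0 allows, correspond to 0.388 to 0.923 CPM (counts per 1000000 of the TMM-scaled library size). Library values below are given by line number, replicate 1 before replicate 2. Stat3 held 11 regions, and the one at its start (chr11:100939208-100939818) had 18.2 to 38.9 CPM across the libraries. The labels do not say which part of Stat3 was deleted, so this region does not check the knockout. The lymph node origin was checked by markers: the lymphocyte genes Ptprc, Cd3e and Cd79a and the 3 endothelial genes Pecam1, Cdh5 and Tie1 had no region at the start. Cd2, another lymphocyte gene, had a start region with 21.9 to 42.6 CPM in the knockout and 3.33 to 20.2 CPM in the wild-type libraries. All 7 melanocyte genes had a start region, and their summed level was 124 to 250 CPM in the knockout and 74.6 to 123 CPM in the wild-type libraries. In line 73 Sox10 was low, with 2.56 and 3.61 CPM against 16 to 28.3 in the other libraries, and Dct had 0.512 and 0.556 CPM, whereas the fibroblast genes summed to 60.7 and 53.6 CPM, against 23.9 to 29.9 elsewhere. Mlana was near 0 in both wild-type lines (0 to 0.844 CPM), whereas Mitf (38.2 and 40.0 CPM) and Pmel (75.8 and 73.3 CPM) were open in line 73. Line 119 had the lowest melanocyte sum (74.6 and 84.2 CPM), with Dct at 3.36 and 4.22 CPM and Tyrp1 at 1.03 and 1.01. Tyr held 4.91 and 4.73 CPM in line 119 and 2.05 and 1.67 in line 73, against 14.2 to 22.4 in the knockout libraries. The melanocyte markers of both wild-type lines were thus mixed, with Mitf and Pmel open and Dct, Tyr and Mlana low. Whether the label of melanoma holds was not tested. In such bulk libraries, fewer cells of a type and less open DNA per cell cannot be told apart.

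The 6 upstream sequences printed here come from members with a promoter entry. They run 5′ to 3′ up to the base before the annotated gene end, from RefSeq on GRCm38.p6, with every CG dinucleotide in capitals. Fzd5, Fzd7 and Fzd1 had a peak at the start in all 8 libraries. Wnt4 and Dkk2 had weaker starts that differed between lines. Of the 6 starts, only that of Dkk2 was separated by genotype under the rule given below. Wnt10b lies beside the region with the highest level in line 73 against the other lines.

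Fzd5 (chr1:64737751-64738000, minus strand): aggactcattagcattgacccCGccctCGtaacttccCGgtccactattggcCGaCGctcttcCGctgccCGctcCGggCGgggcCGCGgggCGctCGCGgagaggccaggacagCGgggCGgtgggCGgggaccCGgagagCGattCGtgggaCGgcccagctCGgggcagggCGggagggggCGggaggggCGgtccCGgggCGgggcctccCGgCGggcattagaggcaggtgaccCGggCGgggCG
Fzd7 (chr1:59481897-59482146, plus strand): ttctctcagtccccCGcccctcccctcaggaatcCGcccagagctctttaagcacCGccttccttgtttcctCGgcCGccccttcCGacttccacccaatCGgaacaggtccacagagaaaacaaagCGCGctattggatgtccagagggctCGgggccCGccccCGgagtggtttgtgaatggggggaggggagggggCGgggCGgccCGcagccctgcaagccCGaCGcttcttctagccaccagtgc
Fzd1 (chr5:4758217-4758466, minus strand): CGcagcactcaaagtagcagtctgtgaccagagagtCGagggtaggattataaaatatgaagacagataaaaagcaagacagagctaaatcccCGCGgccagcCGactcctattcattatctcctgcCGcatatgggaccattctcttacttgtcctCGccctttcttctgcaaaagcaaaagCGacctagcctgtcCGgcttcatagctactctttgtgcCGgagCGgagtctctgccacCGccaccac
Wnt4 (chr4:137277385-137277634, plus strand): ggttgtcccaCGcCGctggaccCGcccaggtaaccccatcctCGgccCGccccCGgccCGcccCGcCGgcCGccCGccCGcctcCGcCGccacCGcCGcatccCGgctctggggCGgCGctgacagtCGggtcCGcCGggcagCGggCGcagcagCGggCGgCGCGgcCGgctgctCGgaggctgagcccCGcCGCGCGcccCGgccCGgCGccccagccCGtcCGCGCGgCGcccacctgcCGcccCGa
Dkk2 (chr3:132085042-132085265, plus strand): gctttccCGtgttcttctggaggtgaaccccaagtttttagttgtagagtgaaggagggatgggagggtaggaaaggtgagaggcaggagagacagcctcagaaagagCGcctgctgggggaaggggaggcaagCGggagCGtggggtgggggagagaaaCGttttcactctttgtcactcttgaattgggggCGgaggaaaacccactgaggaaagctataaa
Wnt10b (chr15:98778207-98778400, minus strand): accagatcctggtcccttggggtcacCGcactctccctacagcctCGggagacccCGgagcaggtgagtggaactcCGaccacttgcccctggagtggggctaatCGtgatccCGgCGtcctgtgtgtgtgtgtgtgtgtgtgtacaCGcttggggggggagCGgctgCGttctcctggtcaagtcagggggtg

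The Fzd5 stretch holds 32 CG dinucleotides in 250 bases and the Wnt4 stretch 44, against 6 in the 224 bases of Dkk2 and 10 in the 194 bases of Wnt10b. Promoter entries, 250 bases before to 50 after a start, were found for 25 of the 37 members. Their median GC content was 71.3%, against 52.7% over 27025 promoters, and the median ratio of observed to expected CG was 0.754 against 0.389. The 27025 promoters, 1 per gene, were not limited to protein-coding genes, of which 21887 are placed, whereas all members are protein-coding. The sets are thus unlike, also for the motif shares below. The 7 motifs were searched on both strands of the promoter windows, and none of their strings contains another. The TCF/LEF string CTTTGA was found in 3 of 25 (Fzd1, Wnt11 and Dkk1) and in 16.2% of all promoters. SOX (ACAATG) was found in Wnt16 and Wnt1 and in 12.8% of all, and AP-1 (TGANTCA) in Wnt5b and in 7.93% of all. The M-box TCATGTG, STAT TTCNNNGAA, C/EBP TTGCGCAA and TEAD GGAATG strings were in 0 of the 25 windows and in 3.74%, 8.47%, 0.185% and 14.6% of all promoters. In the printed Fzd1 stretch the TCF/LEF match reads tcaaag, the reverse strand of the searched string.

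As a group, Frizzled starts had the highest levels per length among the members. The strongest region covering or within 1 kb of a start was taken for each of 29 genes, and for 9 of these, whose strand is not in the tables used here, either gene end was allowed. For these 9, among them Wnt5a, Dkk3, Sfrp4, Fzd6 and Fzd8, an end region below is the region at the gene end taken. That end may be the gene's start. Set per length, the mean over the 8 libraries was 10 to 62.3 CPM per kb at 9 Fzd starts (median 31.7), 4.84 to 23.2 at 14 Wnt starts (median 9.96), 7.43 to 13.0 at 4 Sfrp starts and 9.38 and 9.90 at the 2 Dkk starts. Fzd7, Fzd1, Fzd4, Fzd5, Fzd8 and Fzd3 took the 6 highest places in CPM per kb. Among ligands Wnt9a was highest with 23.2 CPM per kb, followed by Wnt5a with 14.3, and Wnt16 was lowest with 4.84. A peak was called in all 8 libraries at 6 starts, those of Fzd1, Fzd2, Fzd3, Fzd4, Fzd5 and Fzd7, and in no library at Wnt7a.

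**Figure D1:**
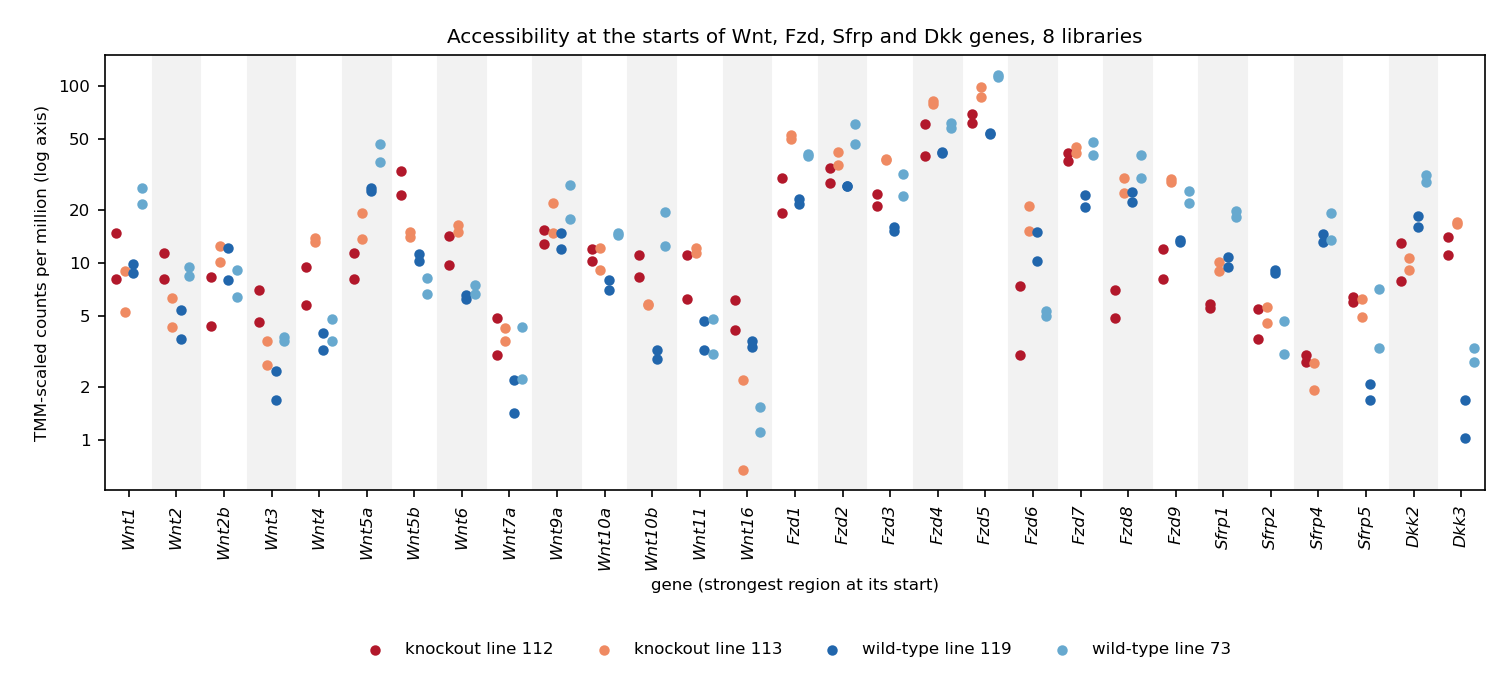
Accessibility in the strongest region at the start of 29 genes, in TMM-scaled CPM on a log axis, with 1 point per library (2 per line) coloured by line. Fzd5 lies between 53.7 and 115 CPM in every library, Dkk3 is higher in both knockout lines, and Sfrp4 and Wnt5a are higher in both wild-type lines.

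The series was designed to compare Stat3 knockout with wild-type lines, so the genotypes were compared first. With the line as the unit, 2 knockout against 2 wild-type lines, edgeR's quasi-likelihood test called 0 of 241 regions at an adjusted p under 0.05, and it called 0% of all 140329 regions tested. Among members the smallest adjusted p was 0.143. Without adjustment 40 member regions had a p under 0.05, against 16.9% of all regions, of which 21 were higher (background 8.27%) and 19 lower (background 8.64%) in the knockout lines. DESeq2's Wald test on the same line sums called 11 member regions, and limma-voom, taking lines as random blocks, called 0. The share of all regions called by DESeq2 is not given here, so the 11 calls cannot be set against a background. The median log2 ratio of knockout to wild-type lines was 0.05 for the members and -0.09 over all regions tested.

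A second rule used the 8 libraries with a mean per line. A region was counted as separated when edgeR called it in the same direction, at an adjusted p under 0.05, in all 4 pairs of a knockout with a wild-type line. There were 28 members higher and 19 lower in both knockout lines, together 19.5% of 241, against 15.1% of all regions (7.64% higher, 7.41% lower). By this rule the genotype and any other difference between the 2 pairs of lines cannot be told apart. The levels of the melanocyte markers and of Cd2 above, whose part was not tested, also differ between these pairs. Wnt regions were separated in 10 cases higher and 8 lower of 125 tested, Fzd in 8 and 5 of 58, Sfrp in 3 and 4 of 24, and Dkk in 7 and 2 of 34. Separated regions were found at 22 genes: at 11 only higher, at 6 only lower and at 5 in both directions. All 4 knockout libraries lay above all 4 wild-type libraries in 42 member regions (background 14%) and below them in 31 (background 12.6%). Without line 73, both knockout lines were called on the same side of line 119 in 95 member regions (63 higher, 32 lower), against 34.2% of all regions. Without line 119, they were called on the same side of line 73 in 99 (38 higher, 61 lower), against 36.8%. Among members, the split between higher and lower thus differed with the wild-type line used. The shares of all regions in each direction are not given here for these comparisons, so this need not be particular to the members.

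**Figure D2:**
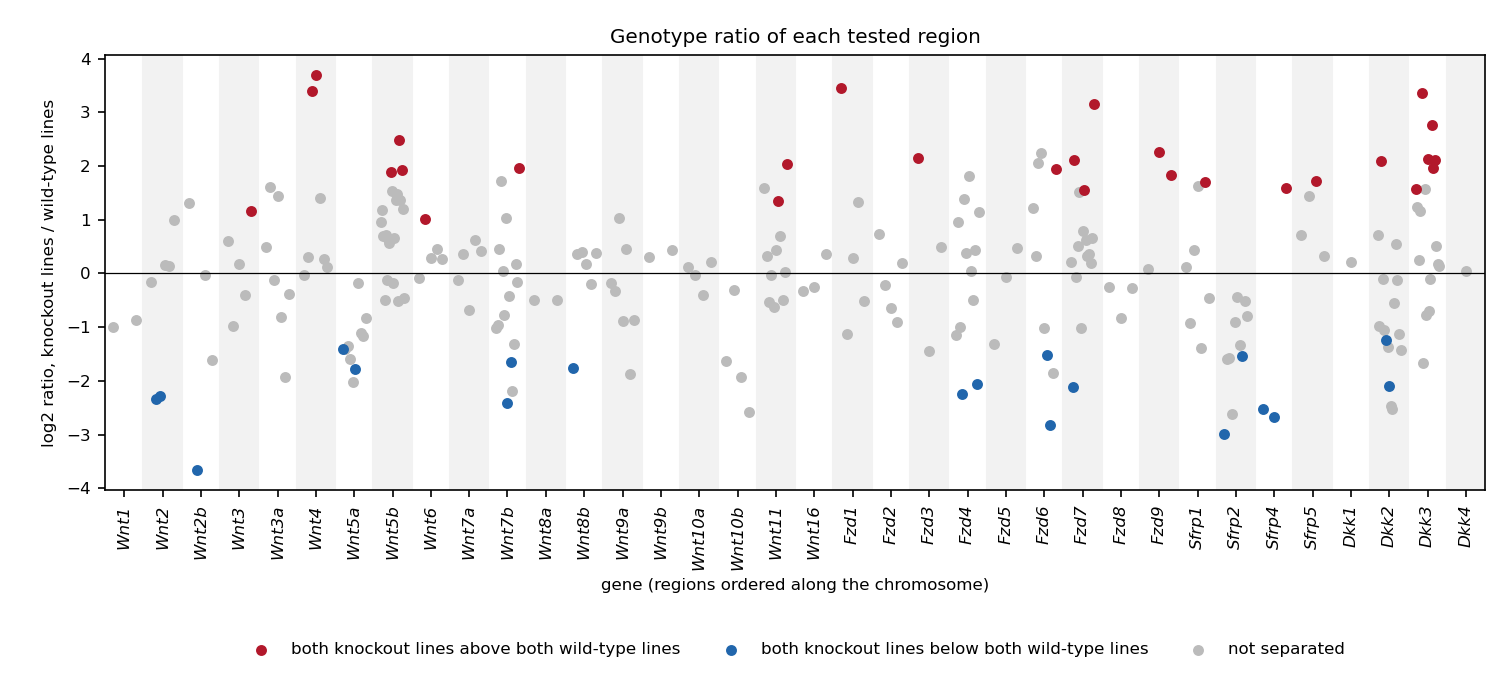
Log2 ratio of knockout to wild-type lines for each of 241 tested regions, grouped by gene and ordered along the chromosome within a gene. Red points are the 28 regions higher and blue points the 19 regions lower in both knockout lines than in both wild-type lines, and Dkk3 holds 6 red points and no blue one.

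Among the ligand genes, Wnt4 had the largest ratios. Wnt4 is known for its part in kidney and female reproductive tract development. The region chr4:137274098-137274638, 3.27 kb upstream of its start, held 8.15 and 5.85 CPM for 112, 17.2 and 13.1 for 113, 0.775 and 0.507 for 119, and 0.768 and 1.39 for 73. The knockout and wild-type libraries did not overlap, and line 113 was also above line 112 (log2 ratio of knockout to wild-type lines 3.70, SE 0.96, edgeR adjusted p = 0.143). A second region, chr4:137266425-137267017, 10.9 kb upstream, held 12.6 and 7.39 CPM for 112, 15.2 and 17.9 for 113, 1.81 and 3.04 for 119, and 0 and 0 for 73 (log2 ratio 3.40, SE 1.18, edgeR adjusted p = 0.183). With both libraries of line 73 at 0 counts, line 112 was at least 12.5-fold and line 113 at least 20.7-fold higher than line 73, taking 3 counts per library as the floor. The Wnt4 start itself, chr4:137276952-137277643, held 5.82 and 9.54 CPM for 112, 13.1 and 13.8 for 113, 3.23 and 4.05 for 119, and 4.86 and 3.61 for 73. The knockout libraries were again all above the wild-type ones, but line 112 against line 73 did not pass (log2 ratio 0.81, SE 0.36, edgeR adjusted p = 0.0565), so this start lay just outside the rule, while the 2 regions upstream were separated with pair adjusted p of 2.34e-14 to 4.85e-06 and 1.93e-14 to 1.44e-06 in edgeR. Inside the gene, chr4:137297595-137298546 was called in 0 of 6 line pairs, with 4.42 and 9.85 CPM for 112, 4.53 and 2.42 for 113, 5.69 and 5.07 for 119, and 2.56 and 5.28 for 73.

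**Figure D3:**
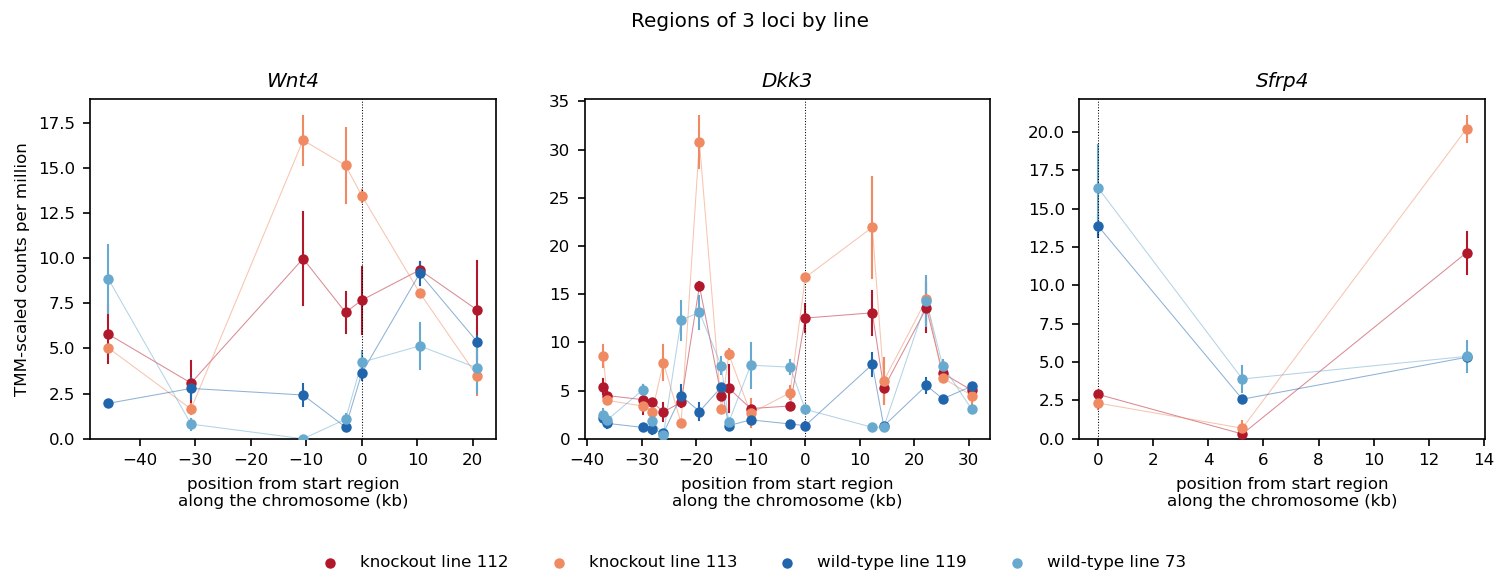
Mean TMM-scaled CPM per line (points) and the range of its 2 libraries (bars) for every region of Wnt4, Dkk3 and Sfrp4, by position from the region at the gene's start or end along the chromosome. Knockout lines are higher just before the Wnt4 start and at the Dkk3 end region, and lower at the Sfrp4 end region, beyond which lies a region where they are higher.

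Starts of Wnt11 and Wnt6 were also separated upwards, with smaller ratios. Wnt11 is best known for signalling without beta-catenin in cell movements of the embryo. Its start, chr7:98834698-98835460, held 6.28 and 11.1 CPM for 112, 12.2 and 11.4 for 113, 3.23 and 4.73 for 119, and 4.86 and 3.06 for 73 (log2 ratio 1.34, SE 0.84, edgeR adjusted p = 0.432). The Wnt6 start, chr1:74771491-74772414, held 9.78 and 14.2 CPM for 112, 16.3 and 15 for 113, 6.59 and 6.25 for 119, and 6.66 and 7.50 for 73 (log2 ratio 1.01, SE 0.80, edgeR adjusted p = 0.563). In both genes the knockout libraries did not overlap the wild-type ones.

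Wnt5a had the opposite order at the gene end taken for its start. Its end region chr14:28504540-28506188 held 8.15 and 11.4 CPM for 112, 13.6 and 19.1 for 113, 26.5 and 25.5 for 119, and 47.1 and 36.9 for 73. All knockout libraries were below all wild-type libraries, and line 73 was above line 119 (log2 ratio -1.40, SE 0.68, edgeR adjusted p = 0.302; pair adjusted p 4.40e-11 to 0.00540 in edgeR). Of 10 Wnt5a regions, 2 were separated, both lower in the knockout lines, and 7 were higher in line 73 than in each other line.

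The lowest ratio among the named regions was at Wnt2b, a ligand close in sequence to Wnt2. The region chr3:104944904-104945411, at the end of Wnt2b far from its start and also inside St7l, held 2.33 and 2.77 CPM for 112, 1.13 and 0.726 for 113, 13.6 and 16.2 for 119, and 26.9 and 31.4 for 73 (log2 ratio -3.66, SE 0.92, edgeR adjusted p = 0.143). The Wnt2b start, 16.6 kb away, held 4.42 and 8.31 CPM for 112, 12.5 and 10.2 for 113, 8.01 and 12.2 for 119, and 6.40 and 9.17 for 73, and its groups overlapped. A pair of neighbouring regions beyond the end of Wnt2, chr6:17978226-17978852 and chr6:17979021-17979615, were lower in both knockout lines. The first held 5.35 and 6.16 CPM for 112, 1.13 and 0.726 for 113, 14.5 and 14.4 for 119, and 15.1 and 22.5 for 73 (log2 ratio -2.33, SE 0.94, edgeR adjusted p = 0.230). The second held 3.49 and 4.31 CPM for 112, 1.13 and 1.45 for 113, 10.9 and 8.61 for 119, and 13.3 and 16.9 for 73 (log2 ratio -2.29, SE 0.90, edgeR adjusted p = 0.222). Line 113 was lowest at both Wnt2 regions, and line 112 lay between line 113 and the wild-type lines. The Wnt2 window of 10 Mb on chromosome 6 was high in line 112 (median log2 ratio to the mean of the lines 0.54), and with a regional offset the ratios were -3.07 and -2.94.

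Wnt7b held separated regions of both signs. Inside the gene, chr15:85574487-85575033 held 4.89 and 4.00 CPM for 112, 4.08 and 2.42 for 113, 12.3 and 13.8 for 119, and 29.7 and 27.2 for 73 (log2 ratio -2.41, SE 0.84, edgeR adjusted p = 0.182). The knockout libraries were lowest, line 119 was intermediate and line 73 highest. Of its 15 regions, 1 was separated upwards and 2 downwards, and 7 were higher in line 73 than in each other line.

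Wnt5b, a close relative of Wnt5a, was the locus where line 112 stood out. Its start, chr6:119543390-119545104, which the model gene Gm52875 also covers, held 24.2 and 32.9 CPM for 112, 14 and 15 for 113, 11.2 and 10.3 for 119, and 8.19 and 6.67 for 73. Line 112 was above each other line there (against line 113 log2 ratio 0.96, SE 0.24, edgeR adjusted p = 0.00171). Of 16 member regions that were higher in line 112 than in each of the other 3 lines, against 1.76% of all regions, 10 lay at Wnt5b. Of these, chr6:119489719-119490273 and chr6:119499841-119500341 are nearer to an end of Fbxl14, a gene within the Wnt5b span. The first held 5.82 and 8.93 CPM for 112, 2.04 and 3.39 for 113, 1.68 and 1.52 for 119, and 2.05 and 1.39 for 73. The second held 4.65 and 5.54 CPM for 112, 1.81 and 0.968 for 113, 0.646 and 1.52 for 119, and 1.28 and 1.67 for 73. Line 112 was highest at both, and no library had a peak at either. Chromosome 6 as a whole was higher in line 112 (median log2 ratio to the mean of the lines 0.58 over the chromosome and 0.42 in the 10 Mb around Wnt5b). After an offset for the regional median, chosen after seeing the data, the count of member regions higher in line 112 than in each other line was 5, with 1 at Wnt5b, against 0.865% of all regions.

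At Wnt5b 3 of 20 tested regions were separated, all higher in the knockout lines. The largest ratio was at chr6:119520652-119521220, inside the gene, which held 5.82 and 5.23 CPM for 112, 5.44 and 5.32 for 113, 0.775 and 1.52 for 119, and 0.768 and 0.833 for 73 (log2 ratio 2.48, SE 0.88, edgeR adjusted p = 0.188). Both knockout lines were at nearly the same level there, and with the regional offset its log2 ratio was 2.12.

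Of 9 Fzd starts, 0 were separated by genotype. Peaks were called at 6 of them in all 8 libraries, at Fzd8 and Fzd9 in 6 libraries each and at Fzd6 in 4. The Fzd5 start, chr1:64736943-64738606, held 69.6 and 61.6 CPM for 112, 98.1 and 86.8 for 113, 53.8 and 53.7 for 119, and 115 and 112 for 73. Line 73 was highest and line 119 lowest, so the wild-type lines lay at the extremes. The Fzd4 start, chr7:89403527-89404535, which also touches Tmem135, held 60.7 and 40.0 CPM for 112, 81.6 and 78.6 for 113, 42.1 and 41.5 for 119, and 57.9 and 61.7 for 73. Fzd7, the first in CPM per kb, held 41.7 and 37.9 CPM for 112, 45.1 and 41.6 for 113, 20.8 and 24.1 for 119, and 47.9 and 40.8 for 73 at chr1:59481787-59482388, with line 119 lowest. Line 112 stood low at Fzd8, whose end region held 4.89 and 7.08 CPM for 112, 30.1 and 24.7 for 113, 22.1 and 25.2 for 119, and 40.7 and 30.3 for 73. Against line 113 the log2 ratio was -2.22, SE 0.27, edgeR adjusted p = 5.04e-09. At Fzd6 the end region held 3.03 and 7.39 CPM for 112, 20.8 and 15.2 for 113, 15 and 10.3 for 119, and 5.38 and 5.00 for 73, with line 113 and line 119 highest.

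Separated Frizzled regions lay away from the starts. The largest was chr5:4732274-4733223, 25.5 kb beyond the start of Fzd1 and past the gene's other end, with 4.65 and 7.39 CPM for 112, 18.6 and 16 for 113, 0.517 and 1.69 for 119, and 0.768 and 1.39 for 73 (log2 ratio 3.45, SE 0.96, edgeR adjusted p = 0.145). Both knockout lines were above both wild-type lines, and line 113 was above line 112. Around Fzd7, 3 regions were higher and 1 lower. The region chr1:59497504-59498635, 15.9 kb downstream of the start, held 19.3 and 14.8 CPM for 112, 7.70 and 7.50 for 113, 1.29 and 1.86 for 119, and 1.02 and 1.39 for 73 (log2 ratio 3.15, SE 0.93, edgeR adjusted p = 0.149). The region chr1:59443673-59444693, 38 kb upstream, held 8.61 and 6.16 CPM for 112, 3.17 and 3.14 for 113, 19.9 and 23.0 for 119, and 27.1 and 22.5 for 73 (log2 ratio -2.12, SE 0.80, edgeR adjusted p = 0.207). These 2 regions of 1 receptor locus thus had opposite order of the genotypes, with no overlap of libraries in either. Another, chr1:59458251-59459315, was higher in line 112 than in each other line, with 14.9 and 10.5 CPM for 112, 6.80 and 3.63 for 113, 3.88 and 4.39 for 119, and 1.79 and 2.50 for 73.

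Fzd9, a receptor whose gene lies in the region deleted in Williams syndrome in people, had 2 of 3 regions separated upwards while its start was not. The region chr5:135258213-135258991, 7.55 kb upstream, held 3.26 and 6.77 CPM for 112, 9.74 and 9.43 for 113, 1.03 and 1.52 for 119, and 1.54 and 1.94 for 73 (log2 ratio 2.27, SE 0.89, edgeR adjusted p = 0.222). At Fzd3, known for its part in axon guidance, the region chr14:65216168-65216780 inside the gene held 5.12 and 4.92 CPM for 112, 3.17 and 4.11 for 113, 1.16 and 1.01 for 119, and 1.28 and 0.278 for 73 (log2 ratio 2.14, SE 0.87, edgeR adjusted p = 0.232). Both showed knockout libraries above all wild-type libraries, at low levels in the wild-type lines.

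Fzd6 and Fzd4 held 4 of the 5 Frizzled regions that were lower in both knockout lines. The region chr15:39043167-39043758, outside Fzd6, held 1.40 and 1.85 CPM for 112, 1.13 and 2.18 for 113, 15.4 and 17.2 for 119, and 6.91 and 5.83 for 73 (log2 ratio -2.82, SE 0.92, edgeR adjusted p = 0.168). Line 119 was highest there and line 73 lay between it and the knockout lines. A region inside Fzd6, chr15:39023039-39023591, was in contrast higher in line 113 than in each other line, with 2.33 and 1.85 CPM for 112, 10.4 and 8.22 for 113, 0.129 and 1.01 for 119, and 1.79 and 2.22 for 73. The region chr7:89380921-89381794, inside Tmem135 and 23.0 kb upstream of Fzd4, held 1.86 and 2.77 CPM for 112, 1.81 and 3.14 for 113, 10.3 and 10.3 for 119, and 12.0 and 12.2 for 73 (log2 ratio -2.25, SE 0.87, edgeR adjusted p = 0.212). All wild-type libraries lay above all knockout ones. Beyond the gene, chr7:89437512-89438104 was called in 0 of 6 line pairs, with 6.52 and 3.69 CPM for 112, 4.30 and 5.56 for 113, 3.62 and 4.39 for 119, and 3.33 and 3.61 for 73, and chr7:89364909-89365469 was higher in line 119 than elsewhere, with 0.931 and 2.46 CPM for 112, 0.906 and 1.69 for 113, 4.39 and 6.92 for 119, and 1.28 and 0 for 73.

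Dkk3 had the most separated regions of any member by count, though not by share (35.3%, against 100% of 3 regions at Sfrp4 and 66.7% of 3 at Fzd9). Dkk3 is often silenced in tumours, and its link to Wnt signalling is less settled than that of the other Dkk proteins. Of 17 regions 6 were separated, all higher in the knockout lines (background 7.64%). In 9 of 17 all knockout libraries lay above all wild-type ones (background 14%), and in 1 they lay below (background 12.6%). The region at the gene end taken for its start, chr7:112157766-112158662, held 14 and 11.1 CPM for 112, 16.5 and 16.9 for 113, 1.03 and 1.69 for 119, and 3.33 and 2.78 for 73 (log2 ratio 2.76, SE 0.89, edgeR adjusted p = 0.164; pair adjusted p 1.86e-13 to 2.25e-06 in edgeR). Mean levels were 14.6 ± 2.98 CPM in the knockout and 2.21 ± 1.2 in the wild-type lines (SD, n = 2 lines each), with peaks in 3 libraries. Inside the gene, chr7:112131864-112132475 held 1.86 and 3.69 CPM for 112, 9.74 and 6.05 for 113, 0.775 and 0.338 for 119, and 0 and 0.833 for 73 (log2 ratio 3.35, SE 0.98, edgeR adjusted p = 0.147). Line 113 was highest there. The region chr7:112143866-112144485 held 2.79 and 7.69 CPM for 112, 9.29 and 8.22 for 113, 1.55 and 1.18 for 119, and 2.05 and 1.39 for 73 (log2 ratio 2.12, SE 0.88, edgeR adjusted p = 0.240). Outside the gene, chr7:112188457-112189105 was called in 0 of 6 line pairs, with 5.12 and 4.92 CPM for 112, 3.40 and 5.56 for 113, 5.17 and 5.74 for 119, and 3.33 and 2.78 for 73.

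Dkk2, an inhibitor that binds the Lrp5 and Lrp6 co-receptors, showed the opposite order at its start. The region chr3:132084603-132086308 held 7.91 and 12.9 CPM for 112, 10.6 and 9.19 for 113, 18.4 and 16 for 119, and 31.5 and 28.6 for 73 (log2 ratio -1.25, SE 0.73, edgeR adjusted p = 0.397). Line 73 was highest, line 119 next, and both knockout lines lowest without overlap. Of 15 tested Dkk2 regions, 1 was separated upwards and 2 downwards, and 5 were higher in line 73 than in each other line. Dkk1 and Dkk4 had 1 region each, and neither was called in any line pair.

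Sfrp4 carried the lowest ratio among the starts. The region at the gene end taken for its start, chr13:19622699-19623380, held 3.03 and 2.77 CPM for 112, 2.72 and 1.94 for 113, 14.6 and 13.2 for 119, and 13.6 and 19.2 for 73 (log2 ratio -2.53, SE 0.86, edgeR adjusted p = 0.175; pair adjusted p 6.69e-10 to 1.64e-07 in edgeR). The knockout lines were not called against each other there (log2 ratio of line 112 to line 113 0.31, SE 0.48, edgeR adjusted p = 0.670), and the wild-type lines were 15.1 ± 1.75 CPM against 2.61 ± 0.404 (SD, n = 2 lines each). Inside the gene, chr13:19628016-19628540 held 0 and 0.616 CPM for 112, 1.13 and 0.242 for 113, 2.46 and 2.70 for 119, and 3.07 and 4.72 for 73 (log2 ratio -2.68, SE 0.93, edgeR adjusted p = 0.183). The remaining Sfrp4 region, outside the gene, was separated the other way.

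The Sfrp2 start was not separated. Of its 10 regions 2 were separated, both lower in the knockout lines. The region chr3:83740094-83740764, 25.9 kb upstream, held 2.79 and 4.62 CPM for 112, 1.81 and 0.726 for 113, 16.2 and 14.9 for 119, and 19.2 and 26.4 for 73 (log2 ratio -2.98, SE 0.90, edgeR adjusted p = 0.150). The region chr3:83755592-83756147, 10.5 kb upstream, was higher in line 119 than in each other line, with 0.698 and 2.46 CPM for 112, 0 and 0.726 for 113, 8.40 and 10.1 for 119, and 0.768 and 2.50 for 73. A region outside Sfrp1, chr8:23481982-23482613, was likewise highest in line 119, with 1.86 and 2.46 CPM for 112, 2.49 and 0.968 for 113, 7.88 and 6.92 for 119, and 3.07 and 1.67 for 73. In all, 11 member regions were higher in line 119 than in each other line (background 11%), of which 3 were at Sfrp2 and 1 at Sfrp1.

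Differences between single lines were common and also arose within a genotype. In edgeR's test of line pairs, line 112 against line 119 gave 138 calls (57.3% against a background of 45.8%), line 112 against line 73 gave 143 (59.3% against 49.9%), line 113 against line 119 gave 140 (58.1% against 58.9%) and line 113 against line 73 gave 134 (55.6% against 52.2%). The 2 wild-type lines differed in 142 regions (58.9% against 56.9%), and the 2 knockout lines in 73 (30.3% against 23.8%). The last count was 35 without replicate 1 of line 113. Of these 73 calls, 15 lay at Wnt5b and 5 at Wnt2, on chromosome 6, which was higher in line 112. With the regional offset the knockout lines differed in 53 member regions. Line 112 then gave 116 calls against line 119 and 131 against line 73. Line 113 gave 136 against each wild-type line, and the wild-type lines differed in 140. The shares of all regions with this offset are not given here. In all, 224 of 241 member regions were called in at least 1 pair, against 88.1% of all regions. Line 112 was called higher than line 119 in 98 of 241 member regions (22.2% of all regions tested), higher than line 73 in 73 (23.8% of all) and higher than line 113 in 44 (8.24% of all). Line 113 was called higher than line 119 in 76 of 241 (30.2% of all) and higher than line 73 in 53 (25.8% of all), and line 119 was called higher than line 73 in 45 (27.5% of all). These pairs share lines and are not independent of each other. The 2 libraries of line 112 agreed least (Pearson r of log2 CPM 0.863, against 0.929 to 0.957 in the other lines), and depth differed between lines. The part of either in these counts was not tested.

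**Figure D4:**
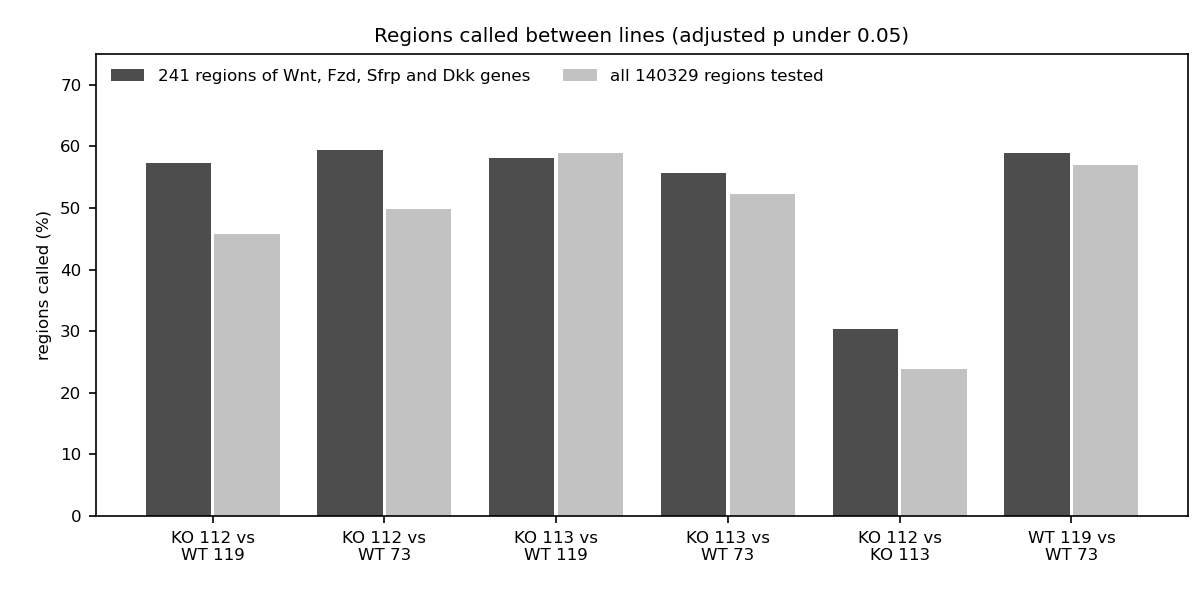
Share of regions called at an adjusted p under 0.05 in each of 6 pairs of lines, for the 241 member regions (dark bars) and all 140329 regions tested (light bars), in percent from 0. The 2 wild-type lines differ in 58.9% of member regions and the 2 knockout lines in 30.3%.

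Line 73 had the most regions of its own. In 48 of 241 member regions it was higher than each of the other 3 lines, against 13.2% of all regions, and 16 were higher in line 113 alone (background 7.26%). Wnt5a and Wnt7b gave 7 each, Dkk2 gave 5, and Wnt10b and Sfrp2 gave 4 each. At Wnt10b, a ligand that acts through beta-catenin and restrains fat cell formation, all 4 regions were of this kind. The strongest, chr15:98780005-98781054, 2.38 kb upstream of the Wnt10b start, held 5.59 and 9.85 CPM for 112, 5.89 and 5.08 for 113, 7.11 and 6.75 for 119, and 77.3 and 65.6 for 73. Line 73 stood apart from every other library (log2 ratio of line 119 to line 73 -3.36, SE 0.22, edgeR adjusted p = 8.06e-19; of line 112 to line 73 -3.25, SE 0.24, edgeR adjusted p = 8.43e-17). The region chr15:98778742-98779242, 0.842 kb upstream, held 2.33 and 2.15 CPM for 112, 1.36 and 1.45 for 113, 1.55 and 1.35 for 119, and 12.5 and 13.1 for 73. The start, chr15:98777665-98778713, held 8.38 and 11.1 CPM for 112, 5.89 and 5.81 for 113, 3.23 and 2.87 for 119, and 19.5 and 12.5 for 73, a smaller excess. The genotype ratio at the strongest region, -2.59, SE 0.89, edgeR adjusted p = 0.181, went with line 73, and line 119 was not called against line 113 (log2 ratio of line 113 to line 119 -0.34, SE 0.30, edgeR adjusted p = 0.335).

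**Figure D5:**
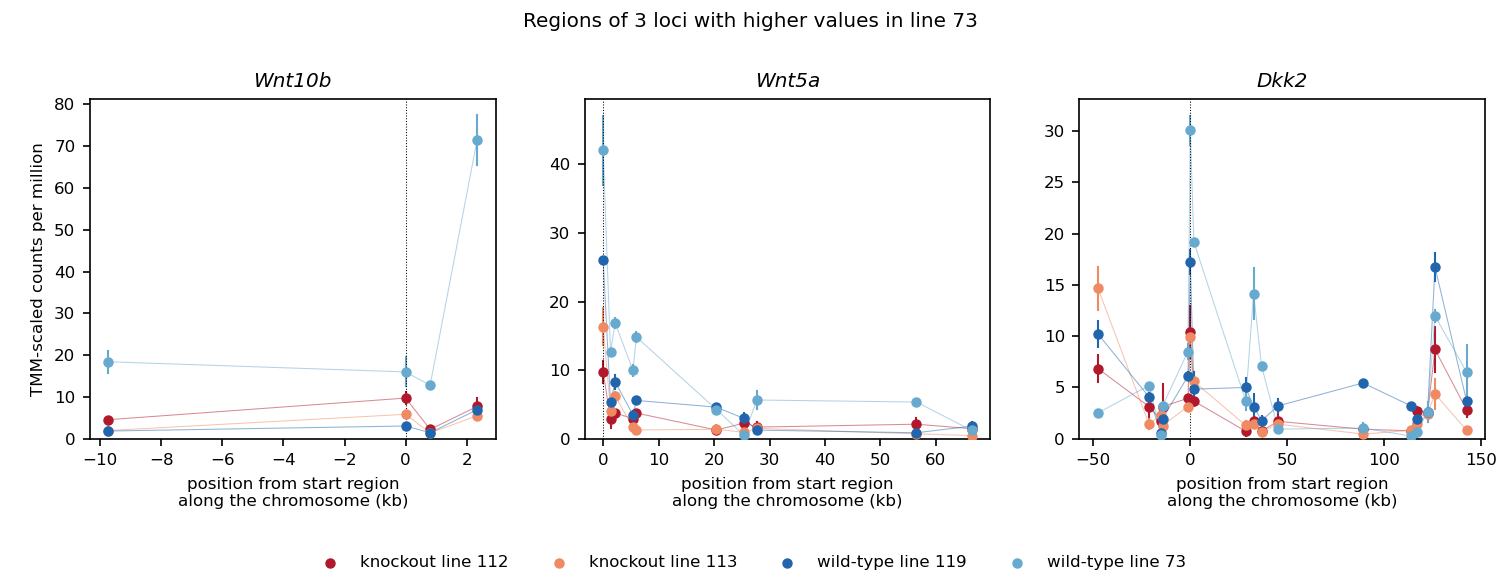
Mean TMM-scaled CPM per line (points) and the range of its 2 libraries (bars) for every region of Wnt10b, Wnt5a and Dkk2, by position from the start or end region along the chromosome. Line 73 reaches 65.6 and 77.3 CPM beside Wnt10b, where the other 6 libraries lie between 5.08 and 9.85, and it is highest at the Wnt5a and Dkk2 regions at 0 kb.

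A region upstream of Wnt3a, a ligand that acts through beta-catenin, was of the same kind. At chr11:59293594-59294375, 3.23 kb upstream, it held 2.79 and 5.85 CPM for 112, 3.17 and 2.42 for 113, 4.27 and 5.57 for 119, and 21.3 and 22.2 for 73, with line 73 above every other library. Line 73 was also the line with low Sox10, the lowest Dct and a higher sum of the 4 fibroblast genes. Of these, Pdgfra (14.3 and 11.4 CPM, against 0.906 to 2.46 elsewhere), Dcn (7.17 and 8.61 CPM, against 0.169 to 1.85) and Col1a1 (38.7 and 32.8 CPM, against 19.4 to 27.4) were highest in line 73. Lum was not, with 0.512 and 0.833 CPM in line 73, 0.388 and 0.507 in line 119 and 0.968 to 2.56 in the knockout libraries. Whether these markers have a part in the line 73 results was not tested. The 10 Mb windows of Wnt10b and Wnt7b were also higher in line 73 (median log2 ratio to the mean of the lines 0.29 for each), and with the regional offset 45 member regions were higher in line 73 than in each other line, against 12.7% of all regions.

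The rest of the pathway was examined in a list of 53 genes with 708 regions, 676 of them tested. Of these 67 were higher and 26 lower in both knockout lines (13.8% separated, against 15.1% of all regions), and the median log2 ratio was 0.18. Some genes were named after their values were seen. All separated regions were higher in the knockout lines at Axin2 (5 of 15 tested) and Dact1 (5 of 11). The same held at Tcf7l1 (6 of 34), Ror1 (5 of 29) and Lrp6 (4 of 25), against 7.64% of all regions. Lrp6 lies on chromosome 6, which was higher in line 112. Line 112 was also called higher than line 113 in 19 of the 34 tested Tcf7l1 regions, against 8.24% of all regions. At Tcf7l1, 7 regions were higher in line 112 than in each other line, against 1.76% of all regions. At Bcl9, in contrast, both separated regions (2 of 13) were lower. At 47 genes with a start region, 0 starts were separated upwards and 1 downwards, that of Rspo2, an amplifier of Wnt signals. The start of Axin2, a feedback inhibitor and target of beta-catenin signalling, held 71.2 and 63.1 CPM for 112, 87.9 and 61.7 for 113, 54.0 and 51.2 for 119, and 54.8 and 54.2 for 73. The start of Lef1, a beta-catenin partner, held 37.2 and 32.9 CPM for 112, 77.5 and 69.2 for 113, 49.6 and 41.0 for 119, and 65.8 and 65.0 for 73. Both were open in every library. The start of Ctnnb1, which encodes beta-catenin itself, held 29.3 and 35.4 CPM for 112, 50.1 and 42.3 for 113, 41.7 and 29.2 for 119, and 50.4 and 38.1 for 73. Line 112 lay below lines 113 and 73 at Ctnnb1, and these were the 2 line pairs called. The start of Tcf7l2, another partner, held 28.9 and 31.4 CPM for 112, 50.7 and 41.6 for 113, 17.6 and 18.2 for 119, and 40.5 and 34.2 for 73, with line 119 lowest. The co-receptor gene Lrp6 held 60.3 and 56.0 CPM for 112, 51.7 and 52.0 for 113, 22.7 and 21.6 for 119, and 43.3 and 51.9 for 73, with line 119 lowest. Ror2, the receptor tyrosine kinase for Wnt5a, held 6.75 and 9.54 CPM for 112, 19.0 and 15.5 for 113, 3.10 and 3.38 for 119, and 41.0 and 35.6 for 73 at its start. Line 73 was highest and line 119 lowest at Ror2, and Wnt5a was also highest in line 73.

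Peak calls differed between libraries. A peak was called at 33 of the 245 regions in line 112 replicate 2 and at 153 in line 119 replicate 1, which are 13.5% and 62.4%, against 12.6% and 61.1% of all regions. A peak was called in all 8 libraries at 17 of 245 member regions and at 12175 of all 148664 regions, and in no library at 25 member regions and at 18069 of all.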

How the data were processed

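The series holds ATAC-seq of 8 libraries from 4 mouse melanoma lines. The deposited table gives raw counts per region and library, and per the submitters' processing notes the build is mm10/GRCm38 and the tools named include Bowtie2 2.2.4, Picard 1.118 and MACS2 2.1.1.20160309, with no role or order. What was counted per region is not given in the sources used here. The authors deposited a peak list for each library, with a score, a fold ratio over background, and −log10 p and −log10 q per peak. Only peak positions and −log10 q were used here.

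Regions were assigned to genes with RefSeq coordinates of GRCm38.p6, in Python 3.11.15 with pandas 2.3.3, and overlaps with peaks were taken with bedtools 2.31.1 at 1 bp or more. The whole count table was fitted with edgeR 4.0.16 in R 4.3.3 (quasi-likelihood, TMM, two-sided, Benjamini-Hochberg over 140329 regions with at least 10 counts in enough lines and 15 in total), once on counts summed per line for the genotype and once on 8 libraries for the 6 pairs of lines. Standard errors are the log2 ratio divided by the root of its F statistic. The scripts were tested on simulated data. Alternatives used DESeq2 1.42.0, limma 3.58.1, other filters and scalings, a replicate block, an offset per 10 Mb window and each library left out. Leaving out a wild-type line, and the offset for regions higher in 1 line, were chosen after seeing the data.

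The members and lists were chosen with earlier results of these data known. Named regions are the region with the highest CPM at each start, up to 10 separated regions in each direction by log2 ratio with at least 2 CPM in the higher genotype, up to 3 regions for each line that were higher there than in every other line with at least 5 CPM, the 3 strongest regions called in no pair, and the starts of 6 pathway genes. Intervals and limits from 3 counts cover counting error only. Region sequences were not used here, and 12 members without a promoter entry are named only. A marker gene of the lymphocyte list is not reported here.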

Additional observations from a re-analysis of the deposited data

Results flagged for a closer look

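In 3 of 132 sets of 4 libraries of 1 genotype at the named regions, a single library lay far from the other 3. The limit used gives about 1 such set in 20 for 4 independent values of 1 normal distribution. Each set here holds 2 libraries of each of 2 lines, so that rate need not apply. At the Wnt5b region chr6:119520652-119521220, line 119 replicate 2 held 1.52 CPM, while the other wild-type libraries held 0.768 to 0.833. At the Wnt2 region chr6:17978226-17978852, line 73 replicate 2 held 22.5 CPM, while the other wild-type libraries held 14.4 to 15.1. At the Wnt10b region chr15:98780005-98781054, line 112 replicate 2, the shallowest library, held 9.85 CPM, while the other knockout libraries held 5.08 to 5.89.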

How the results depend on the processing

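The genotype calls among members, 0 with lines as units, became 62 with libraries as units, 45 with libraries as units and a replicate block, and 11 with DESeq2. With libraries as units, the libraries of a line are treated as separate replicates of its genotype. With lines as units, the genotype calls stayed 0 with each library left out. The count of separated member regions, 47, was 15 at a mean of at least 50 counts, 27 with DESeq2, 29 within 10 kb or inside, 29 with a strict peak call, 46 with a replicate block, 95 without line 73 and 99 without line 119. The count of higher regions, 28, was 6 at 50 counts, 14 with DESeq2 and 63 without line 73, and that of lower ones, 19, was 9 at 50 counts, 32 without line 73 and 61 without line 119. The count of separated pathway regions, 93, was 17 at 50 counts, 50 with DESeq2 and 59 with a strict peak call. At 50 counts, fewer regions are tested, and the pairs gave 33 (112 against 119), 31 (112 against 73), 34 (113 against 119), 34 (113 against 73), 25 (112 against 113) and 28 (119 against 73) calls. DESeq2 gave 85, 89 and 91 for the first 3 of these pairs and 34 for 112 against 113, and the cause was not tested. Apart from the 95 without line 73 and the 99 without line 119, these alternative counts have no share of all regions given here. The same holds for the counts with a library left out. Such counts thus cannot be set against a background. The count of regions higher in line 112 than in each other line was 16, and 5 with the regional offset.

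With each library left out, separated members ranged from 37 to 42, higher ones from 19 to 25, lower ones from 14 to 20 and pathway regions from 65 to 90. The pairs ranged from 96 to 139 (112 against 119), 112 to 144 (112 against 73), 101 to 147 (113 against 119), 119 to 144 (113 against 73), 35 to 69 (112 against 113, 35 without line 113 replicate 1) and 111 to 151 (119 against 73). Replicate numbers did not pair the libraries: replicate differences of 2 lines correlated at -0.037 to 0.004. Of 340 alternative log2 ratios for 24 named regions, 0 reversed. Of these ratios 56 passed the threshold, 24 with libraries as units, 21 with the replicate block and 11 with DESeq2. The 24 regions were chosen as separated in these same libraries, so a reversal was unlikely and its absence is no check of their direction.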
